A study of Mus musculus with 14 samples.

Results

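Regions pulled down with SOX10 in PY230 mammary tumors were examined at 4 windows that hold genes used to tell basal from luminal mammary cells. The windows were taken by position in mm9, and every listed region that overlapped one of them was a member. They were chromosome 16 from 25500000 to 26050000 (Trp63), chromosome 13 from 48150000 to 48550000 (Id4), chromosome 15 from 101200000 to 101950000 (Krt5, Krt8 and Krt18) and chromosome 11 from 99200000 to 100250000 (Krt14 and Krt17). Of 7929 regions in the list, 16 were members. The Trp63 window held 1, the Id4 window held 0, the window of Krt5, Krt8 and Krt18 held 6, and the window of Krt14 and Krt17 held 9.

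The list joins 2 SOX10 ChIP samples and was made against 1 control sample, all from adult tumors of C57BL6J background that grew from PY230 mouse mammary tumor cells placed in syngeneic mice. The ChIP cells carried a SOX10 fused to the AVI peptide and BirA, a ligase that biotinylates this peptide, and both ChIP and control chromatin went over streptavidin beads. The labels do not say what the control cells carried, which promoter drove the tagged SOX10 or whether the cells kept their own SOX10. PY230 is a single tumor line, the labels call the tumor material both bulk and FACS isolated, and host cells in the tumors are not described. A further 10 samples of the series concern H3K27ac in normal mammary cells and 1 is a tumor input, and they were not analysed here. The list holds 1 pooled value per region, so values carry no replicate error, no test between conditions was possible, and the total depth is unknown.

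SOX10 is a transcription factor that binds DNA through an HMG box and is best known from the neural crest and from glia and melanocytes. The mammary epithelium has an outer basal layer and an inner luminal layer. Trp63 encodes p63, a transcription factor of basal cells in stratified and glandular epithelia, and Id4 encodes a helix-loop-helix protein that lacks a DNA-binding region, blocks partner factors and is found in basal mammary cells. Keratins are the proteins of epithelial intermediate filaments, in which a type I chain pairs with a type II chain. Krt5 (type II) and Krt14 (type I) form the basal pair, Krt8 (type II) and Krt18 (type I) form the luminal pair, and Krt17 is a type I keratin of basal cells and of stressed or growing epithelium. Type II genes lie together on mouse chromosome 15, with Krt18 beside Krt8, and type I genes lie on chromosome 11 with genes of keratin-associated proteins among them.

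No sequence of mm9 was at hand, so the 16 regions are given by position alone. To show the kind of DNA that lies at these genes, promoter windows of 300 bases (250 before the start of the transcript and 50 after it) were taken from RefSeq on GRCm38.p6, where 5 of the 7 genes had an entry. The letters ACAAAG and ACAATG, which are forms of the core that SOX factors prefer, were searched on both strands and do not overlap each other. They were found in 28.6% of all 32851 promoter windows of this length, and in 1 of the 5, that of Krt18. Shown are Krt18 for this match (CTTTGT, which is ACAAAG on the other strand, in capitals, from 203 bases before the start), Krt5 as a basal keratin with no match, and Id4 as the gene whose window held no region. The windows were chr15:102027966-102028265 (strand +) for Krt18, chr15:101712856-101713155 (strand -) for Krt5 and chr13:48260866-48261165 (strand +) for Id4, all on GRCm38.p6. A match is a description of letters, and these positions cannot be set beside the mm9 positions of the regions.
Krt18: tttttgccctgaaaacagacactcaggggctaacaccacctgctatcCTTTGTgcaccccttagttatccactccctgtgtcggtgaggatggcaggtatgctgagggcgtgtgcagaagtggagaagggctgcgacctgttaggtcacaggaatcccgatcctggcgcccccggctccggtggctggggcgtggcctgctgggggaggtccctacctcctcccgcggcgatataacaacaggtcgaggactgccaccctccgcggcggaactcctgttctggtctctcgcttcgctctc
Krt5: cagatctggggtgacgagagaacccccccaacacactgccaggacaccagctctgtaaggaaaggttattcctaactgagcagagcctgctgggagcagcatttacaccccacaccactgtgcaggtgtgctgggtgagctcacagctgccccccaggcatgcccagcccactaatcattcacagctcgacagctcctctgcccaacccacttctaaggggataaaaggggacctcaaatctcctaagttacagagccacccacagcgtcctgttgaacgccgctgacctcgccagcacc
Id4: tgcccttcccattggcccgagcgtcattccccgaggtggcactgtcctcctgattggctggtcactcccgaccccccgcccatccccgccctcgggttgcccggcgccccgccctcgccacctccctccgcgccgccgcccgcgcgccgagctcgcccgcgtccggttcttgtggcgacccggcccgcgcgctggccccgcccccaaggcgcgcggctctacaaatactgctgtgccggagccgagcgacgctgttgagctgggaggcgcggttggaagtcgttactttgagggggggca
The Id4 window was rich in G and C (73.3%), against 57.7% for Krt5 and 61.3% for Krt18.

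The windows of Trp63 and Id4 held 1 and 0 regions and the keratin windows 6 and 9, counts whose intervals all held the number that their chromosome's density gives. For chromosome 11 that density includes a dense distal end, described below, which raises the number set against Krt14 and Krt17. The median of the other windows of that size there was 3 regions, below the interval of 4.12 to 17.1 around the count of 9. Among those that ended before 110 Mb, 98.0% held 9 or fewer. The 4 windows add up to 2.75 Mb and held 5.82 regions per Mb, where the span from the first to the last region of each chromosome held 3.13 per Mb over the list. The densities of their own chromosomes, with the distal end of chromosome 11 included, would give 12.3 regions in windows of these sizes, against 16 found. The signals of the members were modest. They ran from 0.0112 to 0.0392 with a median of 0.0234, against a list median of 0.0280 (quartiles 0.01996 and 0.0374) and a list maximum of 0.735. The signal is the authors' own value per region, its unit is not stated, and it reads as coverage averaged over the bases of the region. In the whole list 25% of regions lay above the upper quartile by construction, and 2 of 16 members did. None of the 16 reached the top 10% of the list by signal, and their ranks ran from 1691 to 7370 of 7929.

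The size of each member's signal can be put in reads only with a reservation. Signal times width came in whole steps of 0.0479, and 54 such steps are read here as 1 read of 54 bases, called a read equivalent. Whether the control was subtracted from the signal is not stated, so a read equivalent may be net of it and is no count of the reads in a region. By this reading the members held 2.41 to 15.8 read equivalents with a median of 6.19, and the list median was 7.50. In 12 of 16 members the value was under 10 read equivalents, as in 64.6% of the list. It was a whole number of reads in 8 of 16, against 37.9% of the list. Members were 347 to 1459 bp wide with a median of 656 bp (683 bp in the list). All 16 covered 10.8 kb in all.

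**Figure D1:**
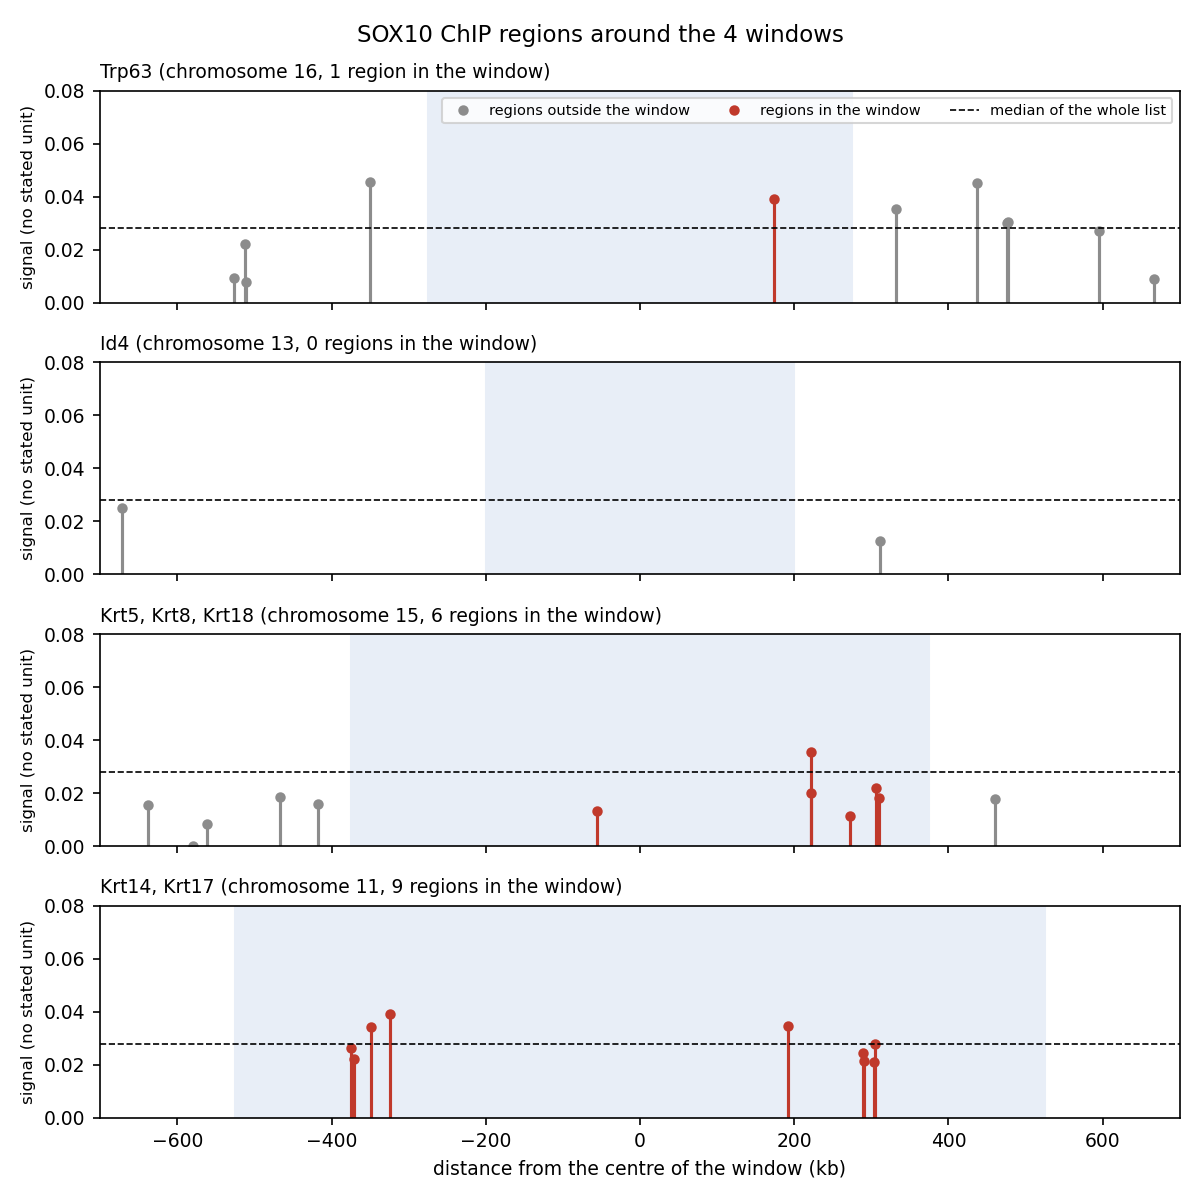
Regions around each of the 4 windows, with distance from the centre of the window in kb on the horizontal axis and the deposited signal, which has no stated unit, on the vertical axis. Red stems are regions in the window (shaded), grey stems are regions outside it, and the dashed line is the list median of 0.0280. Red stems number 1, 0, 6 and 9 from top to bottom, and those of the keratin clusters lie in groups.

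Trp63, the p63 gene, had a single region in a window of 550 kb. It lay at 25948240 to 25948660 on chromosome 16, 448 kb after the start of the window, and was 421 bp wide with a signal of 0.0392 or 6.39 read equivalents. This was the highest signal of the 16 members, and it ranked 35 of 226 on chromosome 16, whose other regions had a median of 0.0248 (quartiles 0.0181 and 0.0332). The region was narrow, at percentile 17.1 of width in the list. Its read equivalents were close to the members' median of 6.19 and below the list median of 7.50. No other region lay before it back to 25426941, a stretch of 521 kb, and 157.7 kb followed it with no region. Outside the window, a region of 3062 bp (25423880 to 25426941, signal 0.0454, 53.8 read equivalents) ended 73.1 kb before it. That region was wider than 99.6% of the list. On the other side the nearest was a region of 661 bp with a signal of 0.0352, 56.3 kb past the end.

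A count of 1 at Trp63 was neither rare nor frequent for chromosome 16. Of 171 other windows of 550 kb on the same grid, 55.6% held no region, 22 held 1 and 54 held more. The count of 1 (exact Poisson interval at 95% 0.0253 to 5.57, counting error only) was 0.763 times the 1.31 that the density of the chromosome gives. The neighbourhood was denser than the window. The windows of 550 kb directly before and after the Trp63 window held 7 and 6 regions. The 5 Mb on each side together held 49, or 4.9 per Mb, with a median signal of 0.0226 (quartiles 0.0181 and 0.0298).

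Id4, the inhibitor of helix-loop-helix factors, had no region in its window of 400 kb. A count of 0 carries an exact Poisson upper bound of 3.69, where the density of chromosome 13 gives 2.05. Windows of this size were empty in 43.9% of cases on that chromosome (125 of 285), so an empty window was common there. The stretch with no region was longer than the window. It ran from 47678521 to 48661502, 983 kb in all, and ranked 21 among 586 gaps between neighbouring regions of chromosome 13, whose median gap was 47.3 kb. A gap around an empty window of 400 kb must be longer than 400 kb, so a length far above the median was fixed by the empty window.

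The regions that bound the empty stretch at Id4 differed in signal. The one before it (47677794 to 47678520) had a signal of 0.0249 or 7.0 read equivalents and ended 471 kb before the window, with rank 355 of 587 on chromosome 13. The one after it (48661503 to 48662050) had 0.0127 or 2.69 read equivalents, began 111.5 kb past the window and ranked 531 of 587. Of the windows of 400 kb on either side, the one before held 0 regions and the one after held 1. Over 5 Mb on each side the list held 56 regions, or 5.6 per Mb, with a median signal of 0.0281.

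**Figure D2:**
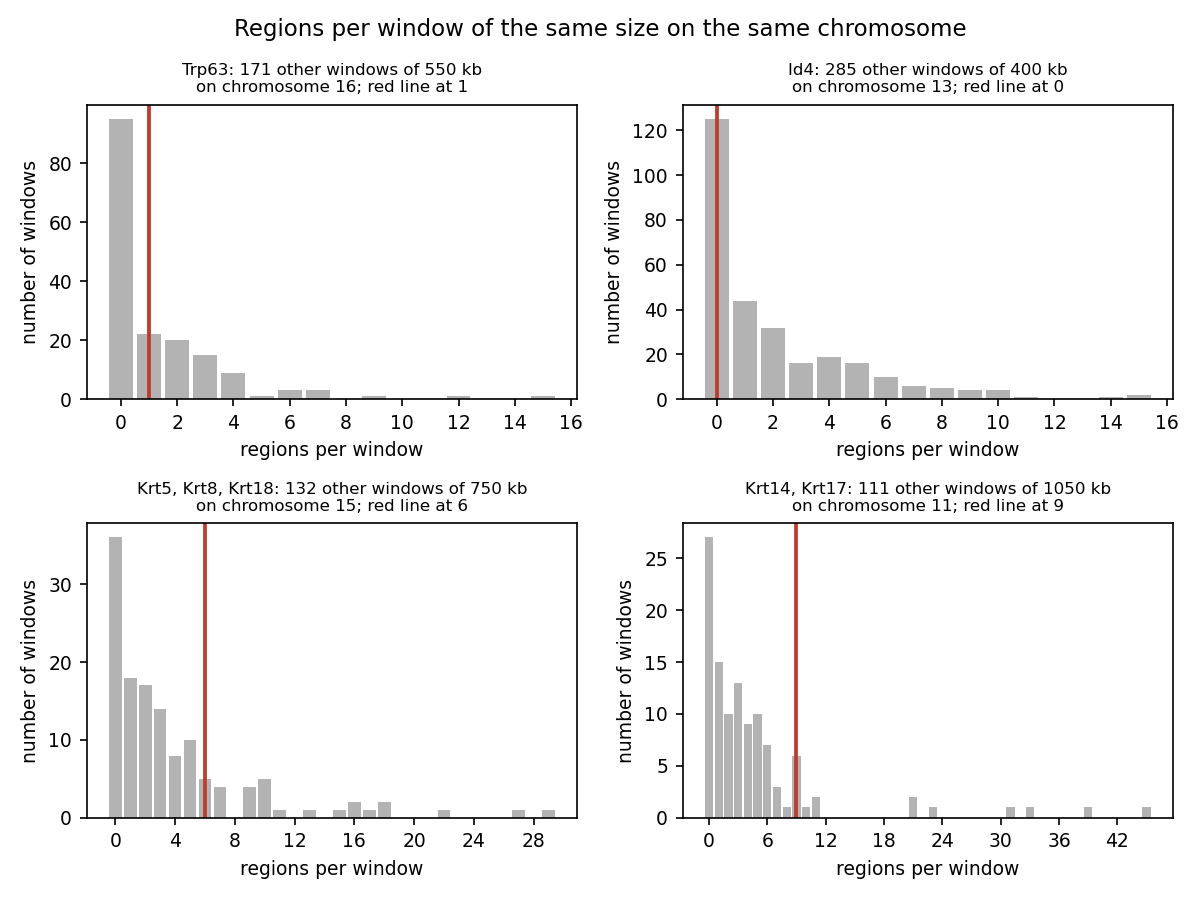
Number of other windows (vertical axis) by the number of regions they held (horizontal axis), for windows of the size of each locus on its own chromosome. The red line marks the count of the locus, which was 1 for Trp63, 0 for Id4, 6 for Krt5, Krt8 and Krt18, and 9 for Krt14 and Krt17.

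At the type II keratin cluster, 6 regions lay in the 750 kb window of Krt5, Krt8 and Krt18, and 5 of them lay within 88.5 kb near its end. The lone region came before them at 101518663 to 101519129, with a signal of 0.0133 or 2.41 read equivalents. After 277 kb with none, a close pair followed. Its members lay at 101796096 to 101796616 (signal 0.0198, 4.0 read equivalents) and at 101796951 to 101797601 (signal 0.0354, 8.93 read equivalents), 334 bp apart. The second of them was the strongest of this window and ranked 154 of 533 on chromosome 15.

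The next region of the group, at 101846878 to 101847568, had the lowest signal of all 16 members (0.0112, 3.0 read equivalents). A further pair lay 3.40 kb apart at 101880266 to 101880737 (signal 0.0219, 4.0 read equivalents) and 101884135 to 101884624 (signal 0.0180, 3.41 read equivalents). In all, 5 of the 6 regions were below 5 read equivalents, against 27.4% of chromosome 15 and 29.2% of the list. Low values were also found next to the window. The nearest regions before and after it had 2.19 and 3.0 read equivalents. The adjacent windows of the same size summed to 10.0 over 5 regions before it and 7.65 over 2 after it. No region of this window was above the upper quartile of the list, and 1 of 6 was above the list median.

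In the gene order of GRCm38.p6, Krt5 follows Krt6a, 10 protein-coding genes lie between Krt5 and Krt8, and Krt18 is the last of 26 keratin genes on the chromosome, followed by Eif4b. The mm9 regions were not assigned to genes, so which of the 3 keratins the group lies nearest to is not given here. The count of 6 (exact Poisson interval 2.20 to 13.1) was 1.51 times the 3.98 expected from chromosome 15. Among 132 other windows of 750 kb, 103 held fewer regions, 5 as many and 24 more, and 27.3% held none. The surroundings were as dense as the window, with 53 regions in the 6.51 Mb of flanks up to the last region of the chromosome (8.14 per Mb) against 8.0 per Mb inside.

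The signal at the type II cluster had a lower median than the rest of chromosome 15, within its interval. The median of the 6 was 0.0189 (quartiles 0.0145 and 0.0214), and the other 527 regions of the chromosome had 0.0274 (quartiles 0.0210 and 0.0368). The order-statistic interval of the median at 95% was the whole range of 0.0112 to 0.0354 and held the value of the chromosome, so a difference was not detectable with 6 regions. Of 96 other windows of this size that held regions, 17 had a lower median. The flanks within 5 Mb had a median of 0.0230 (quartiles 0.0160 and 0.0289), lower than the chromosome as well. In read equivalents the window summed to 25.7, and 80 of 132 other windows held less.

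The type I cluster, the window of Krt14 and Krt17, held the most regions of the 4, and they fell into 2 groups with 515 kb between them. The earlier group had 4 regions over 51.7 kb. Its first pair lay 3.50 kb apart, with signals of 0.0262 (99349873 to 99350857, 10.0 read equivalents) and 0.0223 (99354361 to 99354707, 3.0 read equivalents). The others had 0.0342 (99375393 to 99375845, 6.0 read equivalents) and 0.0391 (99400942 to 99401602, 10.0 read equivalents), the latter ranking 217 of 562 on chromosome 11. All 4 came out as whole numbers of reads.

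The later group had 5 regions over 113.7 kb. It opened with a single region at 99916901 to 99917669 (signal 0.0348, 10.4 read equivalents). A pair 500 bp apart followed, with 0.0244 at 100013768 to 100014446 and 0.0216 at 100014947 to 100015613, or 6.41 and 5.57 read equivalents. The last pair was only 64 bp apart. Its regions had 0.0210 (100027989 to 100029094, 9.0 read equivalents) and 0.0280 (100029159 to 100030617, 15.8 read equivalents), and the second was the widest member at 1459 bp and had the most coverage of the 16. After it 621 kb followed with no region, which began inside the window and ran past its end.

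In the gene table Krt14 follows Krt9 and is followed by Krt16 and then Krt17, next to Krt42 at the end of a series of 27 keratin and 23 keratin-associated genes on chromosome 11 that starts with Krt222. As at the type II cluster, the regions were not assigned to single genes. The count of 9 (exact Poisson interval 4.12 to 17.1) was 1.81 times the 4.97 expected from chromosome 11. Among 111 other windows of 1050 kb, 95 held fewer regions, 6 as many and 10 more, and 24.3% held none. The fullest window held 45, and the list is dense at the distal end of this chromosome. The 4.97 expected from the whole chromosome includes that end, and no expected count was computed without it. The median of the 111 windows was 3 regions (quartiles 1 and 5), below the lower bound of 4.12. Among the 100 windows that ended before 110 Mb, an alternative added after the data were seen, 98.0% held 9 or fewer. The flanks within 5 Mb had 4.5 regions per Mb against 8.57 inside, and the adjacent windows of the same size held 11 and 5.

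The median signal at the type I cluster was 0.0262 (quartiles 0.0223 and 0.0342, order-statistic interval 0.0216 to 0.0348). The other 553 regions of chromosome 11 had 0.0345 (quartiles 0.0231 and 0.0471), inside that interval. The flanks had 0.0222 (quartiles 0.0174 and 0.0304), also inside it. The position of the cluster therefore depended on what it was set against, lower than the chromosome and higher than its surroundings, with neither difference detectable in 9 regions. The chromosome value includes the dense distal end, where windows from 111800000 on had median signals of 0.0364 to 0.0524. A chromosome median without that end was not computed. Of 84 other windows with regions, 42 had a lower median. The 9 regions summed to 76.1 read equivalents, more than 98 of 111 other windows.

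**Figure D3:**
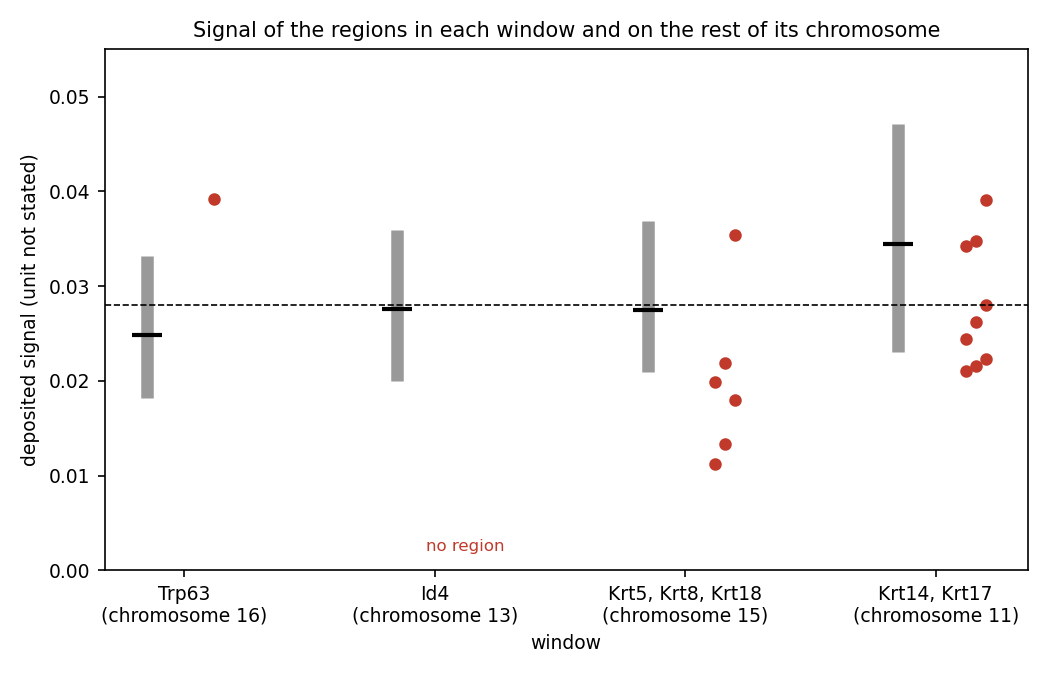
Deposited signal (vertical axis, unit not stated) of each region in the 4 windows (red points), beside the rest of the same chromosome (grey bar, lower to upper quartile, with the median as a black mark). The dashed line is the list median of 0.0280. The single Trp63 region lies above the upper quartile of chromosome 16 (0.0332), and 5 of the 6 points of Krt5, Krt8 and Krt18 lie below the median of chromosome 15 (0.0274).

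Members at the keratins often had a close neighbour. In all, 10 of 16 members lay less than 10 kb from another region, 4 of 6 at the type II and 6 of 9 at the type I cluster, against 38.1% of the list. These 10 formed 5 pairs, with gaps of 64 bp to 3.50 kb. The list share includes sparser chromosomes. Median gaps were 38.2 kb on chromosome 15 and 41.7 kb on chromosome 11, against 89.9 kb on chromosome 16. The share on chromosomes 15 and 11 alone was not computed. Whether the regions of a pair are separate sites is not shown by the list. With each pair counted once, the type II cluster had 4 units and the type I cluster 6, and the type II count then had a lower place among its windows (72.7% with as many or fewer, against 81.8%). The Trp63 region stood alone.

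Between the clusters, signals overlapped: the 6 regions of the type II window ran from 0.0112 to 0.0354 and the 9 of the type I window from 0.0210 to 0.0391. Of the type II regions, 4 lay below the lowest of the type I regions. Widths differed in the same direction, with medians of 505.5 bp and 679 bp. The windows lie on different chromosomes with different medians, and the difference was not tested.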

How the data were processed

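Chromatin was profiled by ChIPmentation, and the values analysed were the 7929 regions listed for 2 SOX10 ChIP samples against 1 control. The signal of each region is deposited by the authors as 1 pooled value with no stated unit or normalization. Per the submitters' processing notes, the build was mm9 and the tools were MACS2 2.1.1, Bowtie 0.12.8, SAMtools 1.3.1 and FastQC, with no settings or calling threshold.

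Regions overlapping a window by at least 1 bp were counted with Python 3.11.15, pandas 2.3.3 and SciPy 1.17.1, and starts are 1-based. Each window was set beside the other windows of its size on a grid anchored on it, between the first and the last region of its chromosome. No p-value was computed, since neighbouring regions are not independent. Intervals at 95% are exact Poisson for counts, for counting error only, and order-statistic for medians, from the spread of signals among the regions of a window. Both treat regions as independent, which neighbouring regions are not, and neither holds replicate error. The search for the signal step used 7282 regions under 1500 bp with a tolerance of 0.05, and counting and step search were tested on simulated data. All 7 genes were named, every region was named in windows with 12 or fewer, and members and lists were chosen with earlier results of these data known. Gene order and promoters came from RefSeq on GRCm38.p6, and coordinates were not converted. Alternatives changed the signal threshold, the overlap, the counting of runs, and the size and placement of windows.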

Additional observations from a re-analysis of the deposited data

How the results depend on the processing

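No paired analysis was possible because both ChIP samples enter the list as 1 pooled value, which also prevents leaving out a sample. Of 103 alternative values, 77 stayed near the reported value and 26 moved. Near meant a count within 1.5 times, a percentage inside its exact binomial interval, or a median inside its order-statistic interval. The Trp63 median, from 1 region and with no interval, had to equal the reported value. Some counts could not move. Settings that changed only the comparison windows (shifted grid, sliding windows, whole chromosome, all chromosomes) left every region count as it was. The Id4 count of 0 also could not change in a part of the list. These cases are among the 34 region counts that stayed, so 34 and 77 overstate stability. The intervals of the medians were too wide for the 14 medians among these values to show stability. The median of the type II cluster was 0.0354 among the 50% of the list with the highest signal (1 region) and 0.0133 in the narrowed window (1 region), against 0.0189, and that of the type I cluster was 0.0348 in both, against 0.0262. Percentages below are the share of other windows with as many regions or fewer, which was 68.4% for Trp63, 43.9% for Id4, 81.8% for Krt5, Krt8 and Krt18, and 91.0% for Krt14 and Krt17. Among the 50% of the list with the highest signal, the percentages were 90.6% for Trp63, 56.8% for Id4, 63.6% for the type II cluster (1 region left) and 81.1% for the type I cluster (3 left). Among the 10% with the highest signal, Trp63 and both clusters had 0 regions. The percentages were 94.2% for Trp63, 91.9% for Id4, 78.0% for the type II cluster and 78.4% for the type I cluster, since most windows were then empty. The 78.0% is among the values that stayed, although no region was left. With windows widened by 25% of their length on each side, Trp63 had 3 regions (82.3%), Id4 still 0 (34.4%) and the type II cluster 10. With windows narrowed likewise, Trp63 had 0, Id4 had 0 (60.5%), the type II cluster 1 (62.0%) and the type I cluster 1 (57.6%), since the other regions lay outside the narrowed windows. Windows on all chromosomes gave 56.4% for Id4 and 89.8% for the type II cluster. Runs counted once gave 72.7% for the type II cluster, and windows of chromosome 11 before 110 Mb, added after the data were seen, gave 98.0% for the type I cluster. The counts at the keratin clusters therefore depend on where the window ends. Members had a median of 6.19 read equivalents, which may be net of a control, and the depth behind each region is therefore not known.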
